A study of Homo sapiens with 6 samples.

Results

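The BCL2 family regulators of apoptosis were examined by RNA-seq in MDA-MB-436 breast cancer cells silenced for MUC1. The 10 members were taken by name from the 37887 gene rows measured: the anti-apoptotic genes BCL2, BCL2L1, MCL1 and BCL2A1, the effectors BAX and BAK1, and the BH3-only genes BID, BCL2L11, PMAIP1 and BBC3. Of these, 9 had counts and all 9 passed the filter on low counts, whereas BCL2A1 had none. In shMUC1 cells, transcripts of the 3 detected anti-apoptotic members fell, BCL2 by 33.5% and BCL2L1 and MCL1 by smaller amounts, while BAK1 and BCL2L11 rose modestly. These 3 lower and 2 higher of 9 tested members stand beside 23.6% lower and 25.2% higher of all genes tested, shares near those of the members. The BAK1 call was lost without control replicate 2 (adjusted p = 0.0636), and that of BCL2L11 under 5 of 16 alternatives. No member had an estimated change above 2-fold.

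These proteins set the threshold at which mitochondria commit a cell to death. BAX and BAK1 form pores in the outer mitochondrial membrane that release cytochrome c, the anti-apoptotic proteins hold them in check, and the BH3-only proteins report stress by binding the guardians or by activating the effectors directly. The family is controlled at several levels, and MCL1 and PMAIP1 proteins in particular turn over quickly, so a transcript level is not a protein level.

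MDA-MB-436 is an established triple-negative breast cancer line with mutant BRCA1, and all 6 cultures stably carried a doxycycline-inducible (tet) MUC1 shRNA vector. The 3 control libraries came from cells given 0.1% DMSO as vehicle and the 3 shMUC1 libraries from cells given 500 ng/ml doxycycline. Transduced cells were selected in puromycin, and whether the line was a pool or a clone was not given. The length of treatment of this line was not given in the sources used here. The sample titles call the vehicle group a control shRNA, whereas the treatment labels give the same inducible MUC1 shRNA, and the latter reading was used. Doxycycline itself, off-target effects of the shRNA and loss of MUC1 cannot be told apart. No library from doxycycline-treated cells without the MUC1 shRNA, with another MUC1 shRNA or with MUC1 restored was analysed here.

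Libraries held 18678307 to 27825546 counts, and levels are given as counts per 1000000 counts (CPM) on TMM-scaled library sizes. MUC1 had 4.24, 3.45 and 3.95 CPM in control and 2.61, 1.98 and 1.83 CPM in shMUC1 libraries, a log2 fold change of -0.84 (95% interval -1.28 to -0.41, edgeR adjusted p = 0.00119). It rested on 34 to 102 counts, and MUC1 shares 48 exon bases with AL713999.1 on the same strand. Summed CPM of the mesenchymal markers VIM, FN1, CDH2 and SPARC ran from 1813 to 1842 in control and from 1804 to 1850 in shMUC1, with 1 higher and 3 lower. The sum hides opposite shifts. Mean FN1 rose from 962.4 to 1285 CPM. Means of VIM fell from 717.9 to 417.1 CPM, of CDH2 from 147.6 to 126.3 CPM and of SPARC from 1.55 to 0.393 CPM. Of the receptors whose absence defines the triple-negative class, ESR1 and PGR had at most 12 counts in any library, whereas ERBB2 transcripts were present at 38.4 to 47.4 CPM. The summed epithelial markers went from 2.94 to 4.11 CPM in control to 13.4 to 15.4 CPM in shMUC1. EPCAM was the 1 of 4 tested. KRT19, GRHL2 and RAB25 were at 0 in every shMUC1 library and had at most 4 counts in any control library. The summed blood cell markers went from 2.997 to 3.407 CPM in control to 5.48 to 8.54 CPM in shMUC1. Mean CD14 went from 2.99 to 6.28 CPM. PTPRC also rose but stayed under 1 CPM, on 2 to 24 counts per library. CD3E and HBB were at 0 in all 6 libraries. The part of these shifts in the results below was not tested, and in bulk RNA fewer cells of a type and less RNA per cell cannot be told apart.

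Across the 15355 genes tested with edgeR's quasi-likelihood test, 25.2% were higher and 23.6% lower in shMUC1 cells at an adjusted p under 0.05. Among the 9 tested members, 2 were higher (22.2%) and 3 lower (33.3%), shares of so few genes that 1 gene moves them by more than their distance from the background. The members had a median log2 fold change of -0.17, against 0.00058 over all genes tested. With a fold change over 2 in addition, 2.21% of all genes were higher and 3.74% lower, and 0 members were called in either direction. The CPM of the groups did not overlap for BCL2L11, higher in shMUC1, nor for BCL2, BCL2L1, MCL1 and PMAIP1, lower in shMUC1, where 28.1% and 26.8% of all genes had such higher and lower separation.

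**Figure D1:**
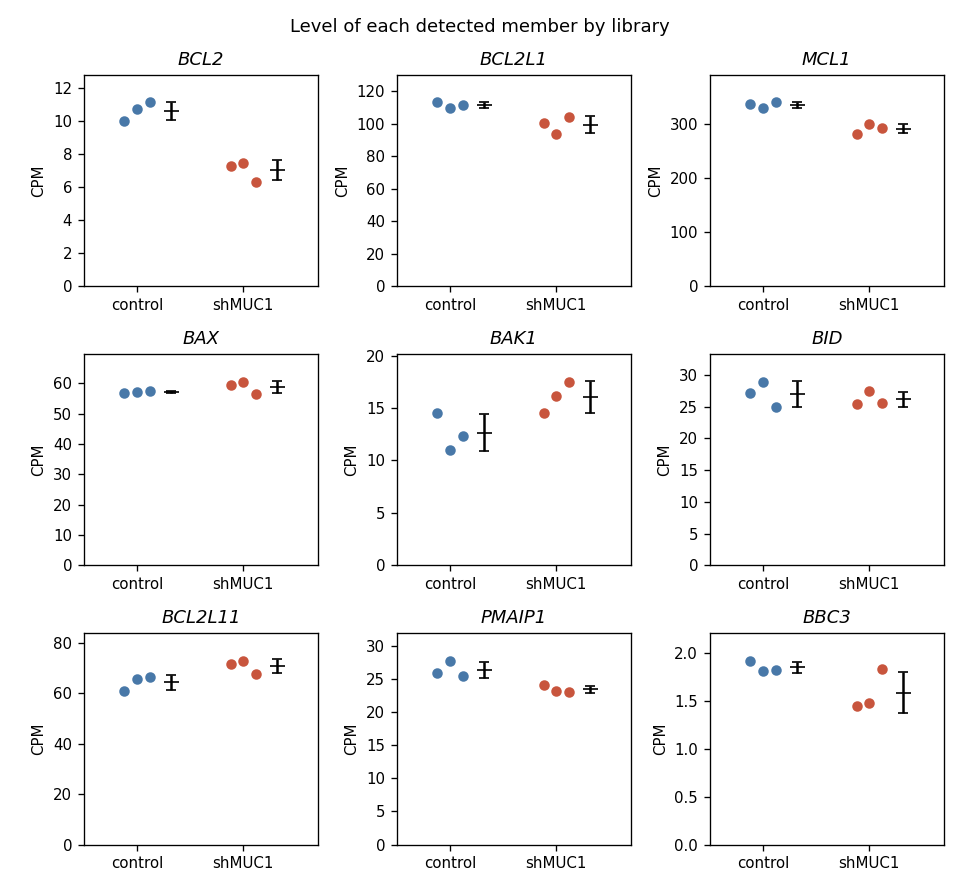
Level in CPM (linear axis from 0) of each of the 9 detected members in the 3 control (blue) and 3 shMUC1 (red) libraries, with mean ± SD beside the points. The shMUC1 points lie below every control point for BCL2, BCL2L1, MCL1 and PMAIP1 and above them for BCL2L11, and they overlap control for the other 4.

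BCL2, the founding member and an inhibitor that resides on mitochondria and the endoplasmic reticulum, showed the largest change of the 9. Its gene lies at chr18:63123346-63320128 on the minus strand of GRCh38 (GENCODE release 29, as for all gene positions here). Control libraries had 10.03, 10.72 and 11.15 CPM, and shMUC1 libraries had 7.31, 7.46 and 6.34 CPM. Every shMUC1 library was thus below every control library, by more than the spread within either group. BCL2 fell from 10.6 ± 0.563 to 7.04 ± 0.605 CPM (SD, n = 3 each), by 0.59 on the log2 scale (SE 0.122, 95% interval -0.84 to -0.34). The edgeR adjusted p was 0.000109. Among all genes tested, 11.1% had a fold change as low or lower. These levels rest on 118 to 288 counts per library.

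MCL1, a short-lived guardian that binds BAK1 and BCL2L11, was the most abundant member. The gene lies at chr1:150574551-150579738 (minus strand). It had 335.7, 328.4 and 339.0 CPM in control and 281.5, 298.7 and 291.3 CPM in shMUC1 libraries, so that the lowest control exceeded the highest shMUC1 library by several times the SD of either group. The log2 fold change was -0.20 (SE 0.0328, edgeR adjusted p = 2.47e-06), a fall of 13.1% and the smallest p of any member, from 5419 to 8755 counts per library.

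BCL2L1, which encodes BCL-xL and by splicing the pro-apoptotic BCL-xS, lies at chr20:31664452-31723989 (minus strand). Its levels were 113.3, 110.0 and 111.6 CPM in control and 100.5, 93.8 and 104.3 CPM in shMUC1 libraries. The control libraries were tightly grouped and lay above all 3 shMUC1 libraries. The log2 fold change of -0.17 (SE 0.0433, 95% interval -0.26 to -0.08) passed the test, with an edgeR adjusted p of 0.00142. Counts per gene do not separate the BCL2L1 splice forms, nor the long and short forms of MCL1. ABALON shares 1424 exon bases with BCL2L1 on the opposite strand but had at most 36 counts in any library.

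BCL2A1, at chr15:79960889-79971446 (minus strand), encodes an inhibitor known mainly from blood cells as an NF-kB target. No read was counted for it in any of the 6 libraries (0 counts each). With a floor of 3 counts, the shallowest library could have held up to 0.161 CPM unseen, and at this depth no difference could be detected. Such limits cover counting error only.

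The effectors differed from each other in their values. BAX, at chr19:48954815-48961798 (plus strand), had 56.8, 57.1 and 57.5 CPM in control and 59.3, 60.6 and 56.7 CPM in shMUC1 libraries, and the groups overlapped. Its log2 fold change was 0.04, with a 95% interval from -0.06 to 0.15 and an edgeR adjusted p of 0.509.

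BAK1, which sits constitutively on mitochondria where MCL1 and BCL-xL restrain it, lies at chr6:33572547-33580293 (minus strand). Control libraries had 14.55, 11.04 and 12.31 CPM and shMUC1 libraries 14.51, 16.15 and 17.52 CPM. Control replicate 1 was level with the lowest shMUC1 library, and the other 2 controls were below all shMUC1 libraries. BAK1 was higher by 0.34 on the log2 scale (SE 0.107, 95% interval 0.13 to 0.56, edgeR adjusted p = 0.00761). Without control replicate 2, the lowest library, the log2 fold change was 0.26 and the adjusted p 0.0636, so this call rests on that library.

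Of the BH3-only members, BCL2L11 (BIM, which binds every anti-apoptotic protein of the family and can activate BAX and BAK1) was the 1 of 4 that passed the test. It lies at chr2:111119378-111168447 (plus strand). It had 61.2, 65.7 and 66.6 CPM in control and 71.6, 73.0 and 67.6 CPM in shMUC1 libraries. The groups did not overlap, but shMUC1 replicate 3 was only just above control replicate 3. The log2 fold change was 0.13 (SE 0.0509, 95% interval 0.03 to 0.24, edgeR adjusted p = 0.0275). Leaving out control replicate 1, shMUC1 replicate 1 or shMUC1 replicate 2 gave adjusted p of 0.154, 0.0843 and 0.111. MIR4435-2HG, which shares 727 exon bases with BCL2L11 on the opposite strand, moved the other way, with 125.9 ± 1.87 CPM in control and 89.9 ± 4.04 CPM in shMUC1 cells (SD, n = 3 each), and fell by 0.49 on the log2 scale (edgeR adjusted p = 3.19e-12). Whether counting used the strand was not given in the sources used here, and the part of MIR4435-2HG reads in the BCL2L11 value was not tested.

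PMAIP1 (NOXA), whose protein binds MCL1 and promotes its degradation, lies at chr18:59899948-59904306 (plus strand). It had 25.95, 27.80 and 25.44 CPM in control and 24.07, 23.26 and 23.11 CPM in shMUC1 libraries. All shMUC1 libraries were below all control libraries. The log2 fold change of -0.17 (SE 0.0763, 95% interval -0.32 to -0.01) had an unadjusted p of 0.0347 and an edgeR adjusted p of 0.0676, and it did not pass the threshold. Without control replicate 3 it did, at -0.21 with an adjusted p of 0.0460.

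BID, a link from death receptor caspases to mitochondria, lies at chr22:17734138-17774770 (minus strand). Its libraries overlapped, at 27.1, 28.9 and 24.9 CPM in control and 25.4, 27.5 and 25.5 CPM in shMUC1. The log2 fold change was -0.05 (95% interval -0.20 to 0.11, edgeR adjusted p = 0.665), and without control replicate 2 it was 0.0098.

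BBC3 (PUMA), a stress-induced protein that binds all the anti-apoptotic proteins, lies at chr19:47220822-47232766 (minus strand). It had 1.92, 1.81 and 1.82 CPM in control and 1.45, 1.48 and 1.83 CPM in shMUC1 libraries, from 34 to 47 counts each. The third shMUC1 library was level with control and the others lower, and the log2 fold change was -0.23 (95% interval -0.80 to 0.33, edgeR adjusted p = 0.521). At this depth neither a fall of the size seen in BCL2 nor no change at all was outside the interval.

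**Figure D2:**
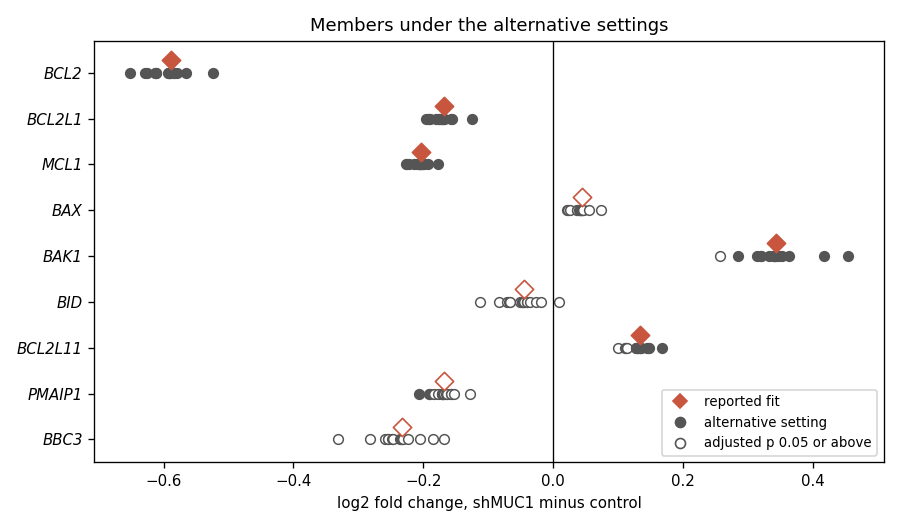
Log2 fold change (shMUC1 minus control) of the 9 tested members as reported (red diamonds) and under each alternative scaling, filter, test or left-out library (circles), with open symbols where the adjusted p was 0.05 or above. BCL2, BCL2L1 and MCL1 stay left of 0 and filled in every setting, whereas BAK1, BCL2L11 and PMAIP1 hold both open and filled circles and BID crosses 0.

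To compare levels between members, CPM was divided by the exon length of each gene in kb. In control cells the levels per kb ran in the order MCL1 (76.5), BCL2L1 (33.7), BAX (22.1), PMAIP1 (11.8), BCL2L11 (9.69), BID (6.07), BAK1 (5.71), BCL2 (0.904) and BBC3 (0.581). BID and BAK1 were neighbours whose control libraries overlapped. In shMUC1 cells MCL1 remained first at 66.5 CPM per kb, followed by BCL2L1 at 30.0 and BAX at 22.8. BCL2L11 (10.6 ± 0.42) and PMAIP1 (10.5 ± 0.23) could not be ordered there, and the lowest BAK1 library (6.56) was above the highest BID library (6.19). BCL2 (0.598 ± 0.0514) and BBC3 (0.498 ± 0.0666) also overlapped in shMUC1 cells. With the longest transcript as the length, BAX stood above BCL2L1 and BID above BAK1 in shMUC1 cells, so those orders depend on the length used.

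**Figure D3:**
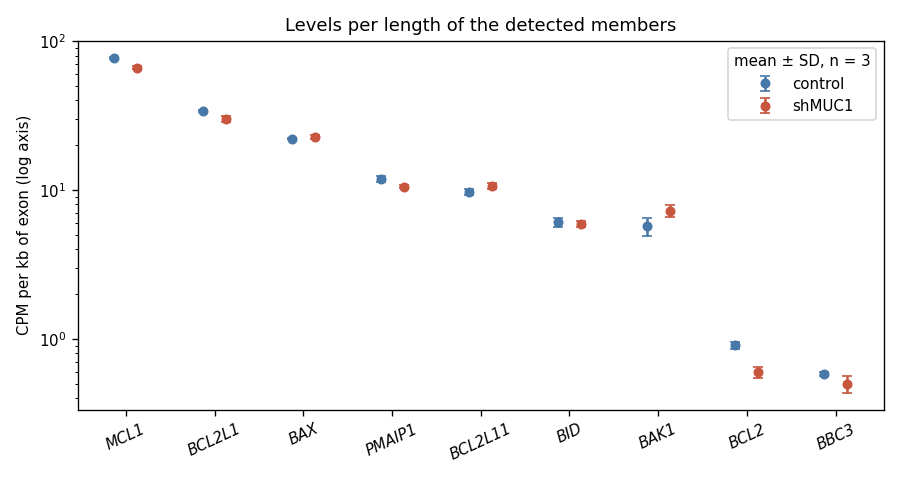
Mean level per exon length (CPM per kb, log axis) of the 9 detected members in control (blue) and shMUC1 (red) cells, with bars for the SD over 3 libraries. MCL1 is the highest at 76.5 and 66.5 CPM per kb, and BCL2 and BBC3 are the lowest at under 1 CPM per kb.

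The anti-apoptotic members made up 66.5% ± 0.525 of the summed CPM per kb of the members in control and 62.8% ± 0.644 in shMUC1 cells (SD, n = 3 each), without overlap. Other genes of the BCL2 family were not in this sum, so these are not shares of the whole family. The shares also depend on the length used and were not computed with the longest transcript. With that length, control BAX was at 42.1 and control MCL1 at 85.0 CPM per kb, instead of 22.1 and 76.5. MCL1 alone held 45.8% of the sum in control and 43.0% in shMUC1 cells. The effectors together had 27.8 ± 0.740 CPM per kb in control and 30.0 ± 0.642 in shMUC1 cells, and the BH3-only members 28.2 ± 1.07 and 27.5 ± 0.624, which overlapped. The ratio of BCL2L11 to BCL2 levels per kb was 10.8, 10.8 and 10.6 in control and 17.3, 17.3 and 18.8 in shMUC1 libraries. That of BAK1 to MCL1 was 0.0746 ± 0.00991 in control and 0.109 ± 0.00874 in shMUC1 cells (SD, n = 3 each). These ratios follow from the single-gene values above, are of transcripts only, and were not tested.

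The 3′ untranslated regions (3′ UTRs) were searched for ATCAGTA, a 7-base word picked out in an earlier analysis of these data for its link with lower expression, and for its 6-base core TCAGTA. The full word was in the annotated 3′ UTR of 1 of 10 members, PMAIP1, and in 12.754% of 13023 tested genes with a 3′ UTR. The core was in BCL2L1, MCL1 and PMAIP1, 3 of 10 members, and in 37.787% of those genes. Every occurrence in these 3 genes is shown, transcript strand 5′ to 3′ with the match in capitals, to let the members that hold the core be compared. The share of the core among genes that were lower in shMUC1 cells was not computed, and of the 3 genes PMAIP1 did not pass the test. The matches are at chr20:31664481-31664486 (minus strand) in BCL2L1, at chr1:150576911-150576916 and chr1:150576745-150576750 (minus strand) in MCL1, and at chr18:59903470-59903476 and chr18:59904142-59904147 (plus strand) in PMAIP1, all in GRCh38.
BCL2L1: gaaagtgcagtTCAGTAataaactgtg
MCL1, first site: gactgtaagccTCAGTActgtacaagg
MCL1, second site: tgacggaaggcTCAGTAattagttatg
PMAIP1, full word: gggccagtaaATCAGTAgactgaacat
PMAIP1, core: atctgttttctTCAGTAttacttaaga

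BCL2, the member that fell most, held neither the word nor its core in its 3′ UTR of 5279 bases. A match is a description of the sequence and not of a bound site, and the shares among the members were not above those over all genes.

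Promoters from 250 bases before to 50 after each RefSeq start (GRCh38.p14) were matched for 9 of 10 members, all but MCL1, in 14 windows. They were searched on both strands for 4 motifs chosen after the values were seen. A consensus NF-kB site was in 0 of these 9 members and 0.558% of 35116 promoters, the FOXO site GTAAACA in BCL2L11 and 3.423%, the E-box CACGTG in BAX, BID and BBC3 and 7.256%, and the cAMP response element TGACGTCA in 0 of the 9 and 1.848%. The percentages are per promoter window, whereas a member counted if any of its windows matched, so members and percentages are not directly comparable. The FOXO match is shown because BCL2L11 is a textbook FOXO target and is the BH3-only member that passed the test. This match was thus picked with the result known, and whether FOXO factors acted on BCL2L11 here was not tested. The surroundings of the match lie at chr2:111120666-111120722 (plus strand), the match is in capitals, and no other of the 4 motifs overlapped it.
BCL2L11 promoter: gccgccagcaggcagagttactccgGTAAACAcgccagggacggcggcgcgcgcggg

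Of the factors known to act on the members, 12 were tested, 4 higher and 3 lower, with a median log2 fold change of 0.02. FOXO1, a forkhead activator of BCL2L11, rose by 0.52 on the log2 scale (edgeR adjusted p = 2.17e-05). MYC, which sensitises cells to apoptosis, rose by 0.42, and RELA, the NF-kB subunit that activates BCL2L1 and BCL2A1, fell by 0.29.

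Among the 11 tested of 13 other genes of the BCL2 family, 6 were higher (54.5%) and 1 lower (9.09%). Shares over all genes tested were 25.2% and 23.6%, and the median log2 fold change of these 11 was 0.26. The 3 largest changes were in BH3-only genes. BIK, which acts at the endoplasmic reticulum, had 1.83, 1.81 and 2.25 CPM in control and 4.67, 4.62 and 3.60 CPM in shMUC1 libraries. HRK, an inducer of death in neurons that binds BCL-xL, had 14.3, 17.5 and 15.1 CPM in control and 32.2, 35.0 and 29.7 CPM in shMUC1 libraries. Both were higher in every shMUC1 library than in any control. BIK rose by 1.14 (SE 0.209) and HRK by 1.05 (SE 0.0857) on the log2 scale, with edgeR adjusted p of 2.03e-05 and 6.25e-13, and both passed a fold change over 2, which no member did. BMF, which responds to loss of attachment, was higher by 0.40 with an edgeR adjusted p of 0.0247. Leaving out control replicate 1 or 3 or shMUC1 replicate 1 or 3 raised that p to between 0.0531 and 0.0705. BCL2L2, an anti-apoptotic gene outside the members, was not called, at -0.06 with an edgeR adjusted p of 0.582. It had 23.9 ± 1.35 CPM in control and 22.95 ± 1.57 CPM in shMUC1 cells (SD, n = 3 each), and the groups overlapped.

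**Figure D4:**
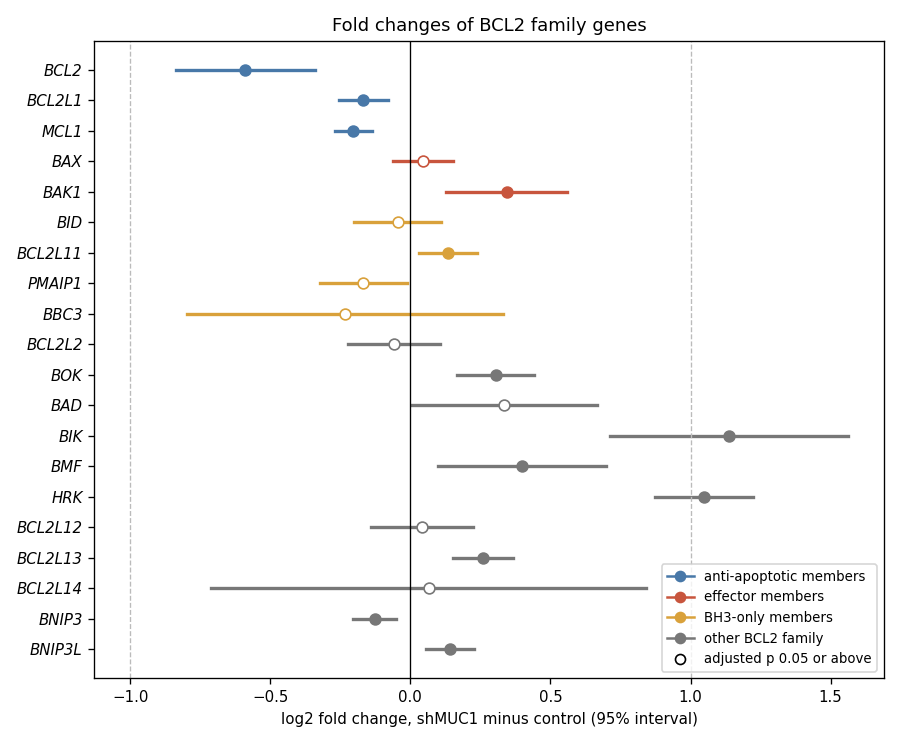
Log2 fold change (shMUC1 minus control) with its 95% interval for the 9 tested members, coloured by role, and the 11 other BCL2 family genes tested (grey), with filled points where the adjusted p was under 0.05 and dashed lines at a 2-fold change. The 3 anti-apoptotic members lie left of 0 and BIK and HRK reach past the right dashed line, at 1.14 and 1.05.

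Downstream of the mitochondria, 12 of 13 listed apoptosome and caspase genes were tested, 6 higher and 2 lower, with a median log2 fold change of 0.28. CASP9, the initiator caspase of the apoptosome, had 10.4 ± 1.10 CPM in control and 16.5 ± 0.83 CPM in shMUC1 cells (SD, n = 3 each) and rose by 0.67 on the log2 scale (edgeR adjusted p = 1.58e-06). AIFM1, a mitochondrial flavoprotein that can pass to the nucleus in dying cells, rose by 0.38. APAF1, the scaffold on which CASP9 is activated, was lower by the fit, at -0.36 with an edgeR adjusted p of 0.0372. The APAF1 call was lost under 7 of 16 alternatives, among them leaving out control replicate 1 (-0.24, adjusted p = 0.239) and shMUC1 replicate 1, 2 or 3 (adjusted p = 0.127, 0.0540 and 0.0611).

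The inhibitor of apoptosis proteins block caspases or signal from death receptors, and of 5 tested genes 1 was higher and 2 lower. BIRC3, an NF-kB target that ubiquitinates RIPK1, had 18.1, 21.1 and 18.3 CPM in control and 6.80, 6.21 and 5.54 CPM in shMUC1 libraries. It fell by 1.62 on the log2 scale (SE 0.113, edgeR adjusted p = 7.91e-15), the largest fall among the 55 tested genes of the 6 lists of related genes. BIRC6 fell by 0.24, and BIRC5 (survivin), which also serves in mitosis, rose by 0.24.

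In the death receptor arm, which reaches the BCL2 family through BID, 8 of 10 genes were tested, 2 higher and 1 lower. The receptors TNFRSF10A and FAS rose by 0.51 and 0.50, and CFLAR, an inhibitor of caspase-8, fell by 0.41 on the log2 scale. Of 7 tested genes for turnover and docking of the proteins, 3 were higher (42.9%) and 2 lower (28.6%). MTCH2, a mitochondrial docking site of BID, rose by 0.32 and VDAC1 by 0.15, whereas HUWE1, a ubiquitin ligase of MCL1, fell by 0.25. Over all 6 lists 55 of 61 genes were tested, with 22 higher, 11 lower and a median log2 fold change of 0.09.

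**Figure D5:**
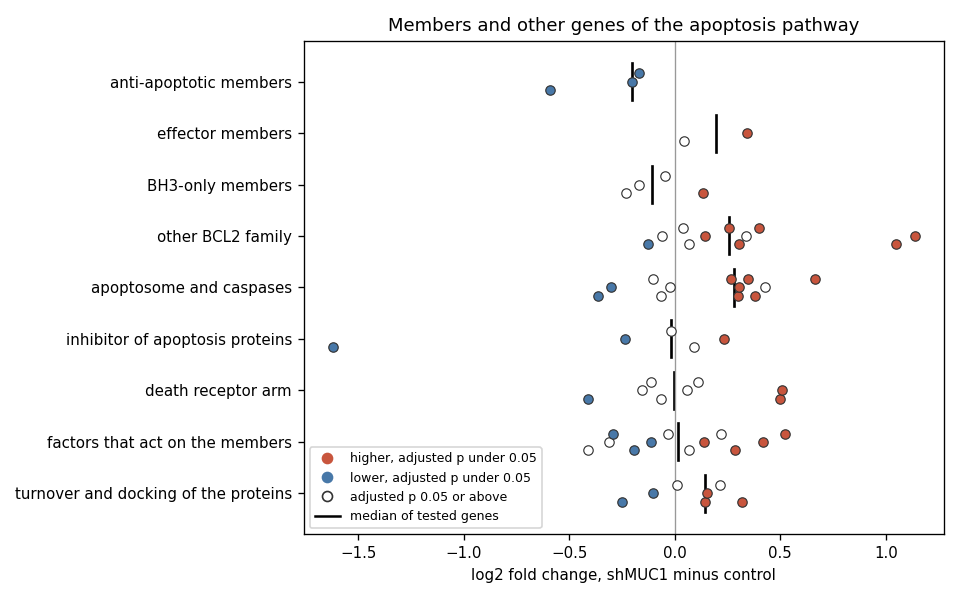
Log2 fold change (shMUC1 minus control) of each tested gene in the 3 role groups of members and the 6 lists of related genes, red where higher and blue where lower at an adjusted p under 0.05 and open otherwise, with a black line at the median. The anti-apoptotic members have a median of -0.20 and the apoptosome and caspase list one of 0.28, and BIRC3 stands alone at -1.62.

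BMP7 (0.0507) and MYLK (0.0529) were among the genes whose pattern over the 6 libraries was most like that of BCL2, by the root mean square difference in log2 CPM relative to the control mean among 13468 genes. Their log2 fold changes were -0.56 and -0.54.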

How the data were processed

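Total RNA of 6 MDA-MB-436 libraries was prepared with a stranded poly(A) kit per the labels. Counts for each gene symbol were deposited unnormalized, with 1 column per library. The submitters' processing notes name CASAVA 1.8.2, STAR 2.7.9a, featureCounts, DESeq2 1.24.0 and GRCh38.p7. The annotation release, the strand setting and the counting of read pairs were not given in the sources used here. Small counts were often even, such as 6, 2, 6, 8, 4 and 12 for ESR1 over the 6 libraries. CASP10 had 2, 2, 2, 0, 2 and 4, whereas BCL2L15 had 10, 6, 1, 2, 4 and 4. Whether pairs were counted as 2 reads was not tested. If they were, the counts given here overstate the number of fragments and the counting errors are too small. A fit on halved counts again called 2 members higher and 3 lower.

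Counts were tested with edgeR 4.0.16 in R 4.3.3 (quasi-likelihood test, TMM, filterByExpr, group as the only term, two-sided, Benjamini-Hochberg over 15355 genes) and the fit was tested on simulated data. SEs come from the F statistic. Libraries are cultures in triplicate per the labels, and p-values measure only the spread between them. Chi-square per degree of freedom between libraries of a group was 2.79 to 5.55, with no sign of a library deposited more than once.

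Members and lists were chosen with earlier results of these data known. Named genes were the members, MUC1, the 3 called genes per list with the largest absolute change and a mean of at least 20 counts, and the 3 genes most like BCL2 (mean CPM of at least 1). Symbols were matched to GENCODE release 29 (37186 of 37887 rows). MARCHF5 had no row under that symbol, and the reason was not tested. A motif search in protein sequences was planned but not run, since no protein sequences were used here. A few genes, 2 of them in the marker lists, are not reported here. Alternatives were DESeq2 1.42.0, limma-voom (limma 3.58.1), other scalings and filters, a replicate block, halved counts, mitochondrially encoded genes left out, equal totals and each library left out. The MIR4435-2HG and BCL2L2 values were added after seeing the data.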

Additional observations from a re-analysis of the deposited data

How the results depend on the processing

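The directions and calls of BCL2, BCL2L1, MCL1 and BAX held under all 16 alternatives, and those of BBC3 under 15 of 15 (its mean is under 50 counts). BCL2L11 lost its call with library totals only (0.11, adjusted p = 0.0661) and with a mean of at least 50 counts (0.11, adjusted p = 0.0562), where PMAIP1 gained one (-0.19 in both, adjusted p = 0.0378 and 0.0312), so that 1 member was higher in each. Leaving out 1 library gave log2 fold changes of 0.26 to 0.45 for BAK1, 0.10 to 0.17 for BCL2L11, -0.21 to -0.13 for PMAIP1 and -0.11 to 0.0098 for BID, which turned its sign without control replicate 2. It gave 1 to 2 members higher, 1 to 3 apoptosome and caspase genes lower and 1 to 3 factors lower. With a fold change over 2, 0 members were higher and 0 lower, and 339 and 575 of all genes. With a fold change over 1.5, 0 members were higher and 1 lower, and 846 and 1280 of all genes. The apoptosome and caspase list had 1 lower gene with no low-count filter, with DESeq2 and with limma-voom, and the factors had 1 with no low-count filter. The cause of these changes was not tested.

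Same-numbered libraries of the groups had correlations of deviations from -0.0413 to -0.00669. Libraries with different numbers were not compared in this way, so these values cannot tell whether a number marks a shared culture or day. A replicate block left 2 members higher and 3 lower, with BCL2 at -0.59 and BAK1 at 0.35, and changed no member's call. The median over all genes stayed within 0.022 of 0 in every setting. Depth limits BBC3 and BCL2A1 most.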
